A study of Mus musculus with 36 samples.

Results

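Expression of 8 CXC chemokine genes (Cxcl1, Cxcl2, Cxcl9, Cxcl10, Cxcl12, Cxcl13, Cxcl14 and Cxcl16) and of Cx3cl1, the gene of the single CX3C chemokine, was examined in epididymal white adipose tissue (eWAT) of mice. The genes were taken by symbol from the table of 24750 genes, in which each of the 9 had exactly 1 Ensembl row, and all 9 passed the filter on low values. The mice were wild-type (WT) or carried Ccl19 knocked into the Adipoq locus (CCL19-KI), so that adipocytes, the cells in which Adipoq is active, drive the transgene. Both lines were on a C57BL/6 background and were bred apart, WT from WT pairs and CCL19-KI from homozygous pairs, so that genotype and breeding line cannot be told apart. Males received a normal diet (ND), a 40% fat diet (40% HFD) or a 60% fat diet (60% HFD) for 10 weeks, and at 14 weeks of age, after 8 weeks of feeding, were left unligatured or had a silk ligature tied around the upper second molars to induce periodontitis, with collection 2 weeks later. Each of the 12 combinations of genotype, diet and ligature had 3 libraries, 36 in all. The sample labels mark 18 libraries as unligatured, whereas the series' design text describes ligature for every group and the study's methods for RNA-seq name ligatured mice only; the labels were followed here.

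Chemokines are small secreted proteins that steer leukocytes along gradients by binding receptors on the cell surface. CXCL1 and CXCL2 act through CXCR2 and draw neutrophils; CXCL9 and CXCL10 are induced by interferon and draw activated T cells and NK cells through CXCR3; CXCL13 draws B cells through CXCR5. CXCL12 retains progenitors and leukocytes through CXCR4 and is scavenged by ACKR3, CXCL14 is a constitutively made chemokine of epithelia and stroma, and CXCL16 and CX3CL1 are made as membrane-anchored proteins, with receptors CXCR6 and CX3CR1, that ADAM10 and ADAM17 can release from the cell.

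The 4 promoters below are shown because Cxcl1 was the gene called with both fat diets and Cxcl2 is its neighbour on the chromosome, because Cxcl14 had most of the called comparisons, and because Cxcl10 held both motifs searched. They are the 250 bases before the RefSeq start site in GRCm38.p6, at chr5:90890995-90891244 (plus strand) for Cxcl1, chr5:90903649-90903898 (plus) for Cxcl2, chr5:92348890-92349139 (minus) for Cxcl10 and chr13:56296552-56296801 (minus) for Cxcl14, written 5′ to 3′ in the direction of transcription. Capitals mark matches, on either strand, to the kappaB consensus, the binding motif of NF-kB, or to GAAANNGAAA, a core of the interferon-stimulated response element (ISRE).
Cxcl1: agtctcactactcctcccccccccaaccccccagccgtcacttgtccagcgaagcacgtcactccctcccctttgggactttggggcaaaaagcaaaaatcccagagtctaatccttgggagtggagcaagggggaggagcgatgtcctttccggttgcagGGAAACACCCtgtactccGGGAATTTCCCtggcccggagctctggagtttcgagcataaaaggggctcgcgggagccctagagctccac
Cxcl2: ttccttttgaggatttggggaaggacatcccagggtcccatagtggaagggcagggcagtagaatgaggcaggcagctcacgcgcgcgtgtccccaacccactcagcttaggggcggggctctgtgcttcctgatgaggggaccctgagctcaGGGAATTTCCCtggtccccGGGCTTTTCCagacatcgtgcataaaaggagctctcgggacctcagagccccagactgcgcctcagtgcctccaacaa
Cxcl10: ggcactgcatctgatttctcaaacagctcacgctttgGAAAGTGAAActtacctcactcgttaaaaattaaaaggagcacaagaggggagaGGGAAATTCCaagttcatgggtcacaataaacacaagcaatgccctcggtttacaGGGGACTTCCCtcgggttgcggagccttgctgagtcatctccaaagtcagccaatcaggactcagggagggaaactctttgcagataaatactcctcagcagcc
Cxcl14: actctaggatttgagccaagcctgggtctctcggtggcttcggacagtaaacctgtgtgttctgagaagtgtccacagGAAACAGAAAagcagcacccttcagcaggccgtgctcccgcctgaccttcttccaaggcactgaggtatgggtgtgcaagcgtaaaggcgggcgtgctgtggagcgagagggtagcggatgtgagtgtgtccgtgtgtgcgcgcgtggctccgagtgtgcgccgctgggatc
The kappaB matches began 89 and 71 bases before the start in Cxcl1, 97 and 78 before it in Cxcl2, and 159 and 104 before it in Cxcl10. The ISRE core began 213 bases before the start in Cxcl10 and 172 before it in Cxcl14. Of the 8 members with a RefSeq promoter, which left out Cxcl16, 6 held a kappaB match, against 16.9% of 32536 promoters of the same length, and 2 held the ISRE core, against 2.98%. The other kappaB matches were in Cxcl9, Cxcl13 and Cx3cl1. A match is a description of letters, and no binding was measured.

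Sequencing depth was 11962228 to 21581595 reads assigned to genes per library, with a median of 15573273, so that 1 read was worth 0.0472 to 0.0834 normalized CPM, the deposited unit, in which read counts are scaled to library size. The 7 adipocyte markers (Adipoq, Plin1, Fabp4, Cidec, Lep, Lipe and Pnpla2) were above 0 in every library, with a sum of 4477 to 24976 normalized CPM. Markers of other tissues were also present: the sum of 6 hepatocyte markers (Alb, Apoa1, Ttr, Fgb, Ahsg and Apob) ran from 9.30 to 40449 normalized CPM, and that of 7 markers of epididymal epithelium (Crisp1, Lcn5, Lcn8, Lcn9, Adam7, Rnase10 and Cst8) from 0 to 9553. Lower sums came from 5 skeletal muscle markers (18.1 to 484), 4 kidney tubule markers (0 to 206) and 4 exocrine pancreas markers (6.48 to 75.1).

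The targeted gene was checked first, and 2 of the 36 libraries went against their genotype label. Ccl19 was 0.507 to 4.51 normalized CPM in 17 WT libraries and 5.57 to 34.6 in 17 CCL19-KI libraries. Gm2564, a gene with stretches identical to Ccl19, was at 0 to 0.160 in the same 17 WT libraries and at 11.6 to 107.9 in the same 17 CCL19-KI libraries. The library labelled WT ND unligatured replicate 2 had 19.2 normalized CPM of Ccl19 and 41.9 of Gm2564, within the CCL19-KI range. The library labelled CCL19-KI 60% HFD unligatured replicate 3 had 0.687 of Ccl19 and 0 of Gm2564, within the WT range. These 2 libraries also had the highest epididymis sums, 6347 and 9553 against at most 6266 in the other libraries, and hepatocyte sums of 9.30 and 11.1. They were kept under their labels, and results that rest on them are given again for the 34 other libraries, a fit added after seeing the data.

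Per kilobase of the longest annotated transcript, Cxcl12 had the highest median level of the 9 genes over the 36 libraries, 16.3 normalized CPM per kb, followed by Cxcl16 at 4.94, Cxcl9 at 4.47 and Cxcl13 at 3.52. Cxcl10 (0.884), Cxcl14 (0.792), Cxcl1 (0.785) and Cx3cl1 (0.768) had medians close to each other on the same scale, and Cxcl2 was lowest at 0.175. Among the receptors, the CXCL12 scavenger Ackr3 had the highest median, 23.2 normalized CPM per kb, ahead of Cxcr4 at 6.31, and Cxcr2 was lowest at 0.115. The plot of levels per transcript length shows this order with the range of each gene.

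**Figure D1:**
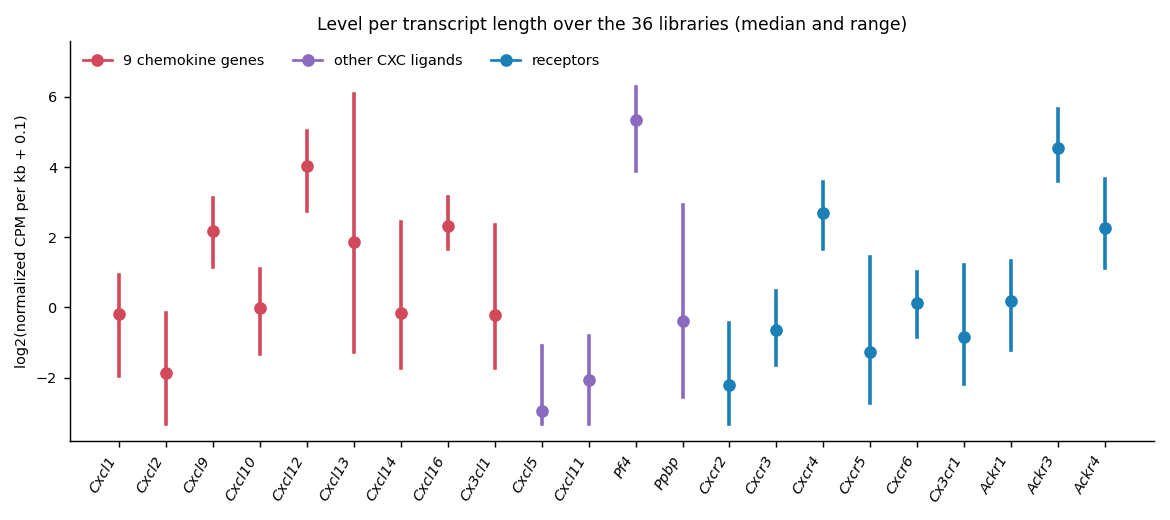
Median (point) and range (bar) over the 36 libraries of log2(normalized CPM per kb + 0.1) for the 9 chemokine genes, 4 other CXC ligands and 9 receptors. Cxcl12 had the highest median of the 9 genes at 16.3 normalized CPM per kb and Cxcl2 the lowest at 0.175, and the range was widest for Cxcl13.

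In the deposited unit, which is not scaled to length, the 9 genes differed in how far their levels spread over the 12 groups. The highest group mean was 17.4 times the lowest for Cxcl13, 5.69 times for Cx3cl1, 5.24 times for Cxcl14, 4.34 times for Cxcl1 and 4.19 times for Cxcl2, against 2.82 times for Cxcl12, 2.28 times for Cxcl10, 1.85 times for Cxcl9 and 1.55 times for Cxcl16. Single libraries moved 4 of these ratios by over 1.5 times. That of Cxcl13 was 9.21 without WT 40% HFD ligatured replicate 2, that of Cxcl1 was 6.77 without WT ND ligatured replicate 3, and that of Cxcl14 was 8.06 without WT 40% HFD ligatured replicate 1. For Cxcl2 the ratio was 7.13 without WT ND unligatured replicate 1, 7.71 without WT ND ligatured replicate 3, 6.96 without CCL19-KI ND unligatured replicate 1 and 10.8 without CCL19-KI ND ligatured replicate 1. In the 34 libraries that match their genotype label, the ratio was 5.68 for Cxcl14, 4.24 for Cx3cl1, 2.08 for Cxcl9, 1.81 for Cxcl10 and 1.64 for Cxcl16. Those of the other members did not change. The highest group was then CCL19-KI 60% HFD unligatured for Cxcl14 and CCL19-KI ND ligatured for Cx3cl1. When the 12 group means were put in order, all 11 pairs of neighbours overlapped in their values for 8 of the genes, and 10 of 11 did for Cxcl14. On the log2 scale the share of variance that lay between groups was 61.0% for Cxcl14 and 57.3% for Cxcl1, above the upper quartile of all 17852 genes tested (56.7%), and 28.3% for Cxcl2 and 22.9% for Cxcl16, below the lower quartile (37.5%). The plot of values by group shows every library.

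**Figure D2:**
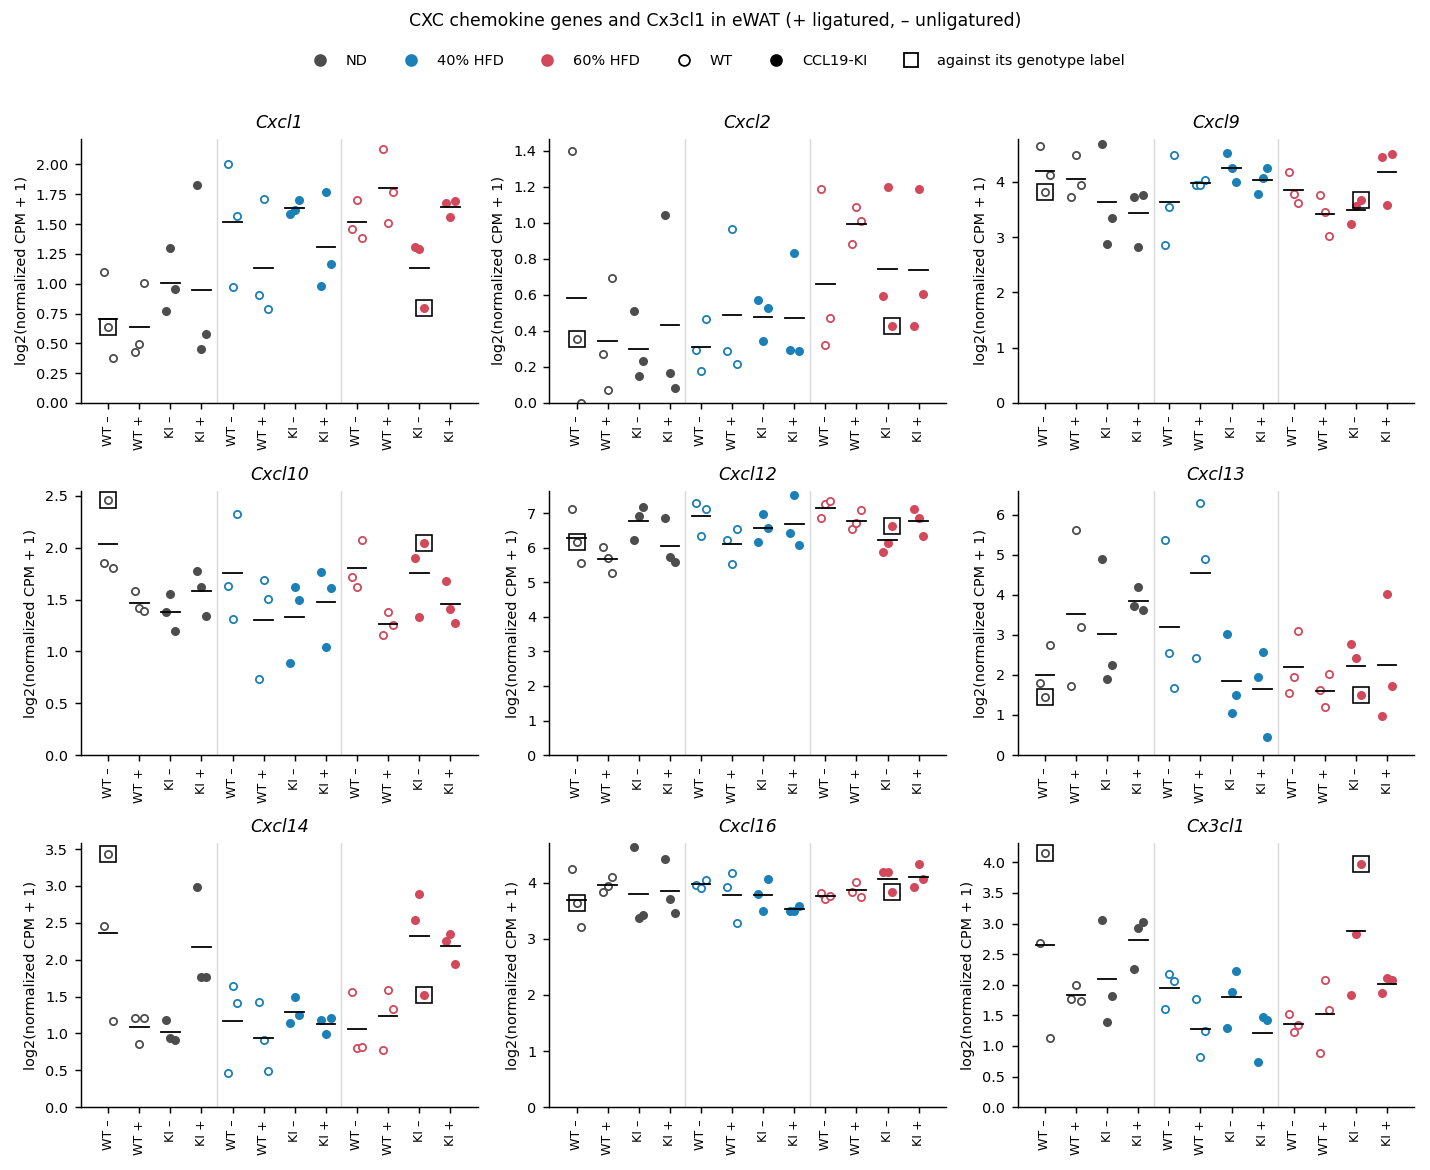
Expression of the 9 genes as log2(normalized CPM + 1) in 36 eWAT libraries, by diet (colour), genotype (open for WT, filled for CCL19-KI) and ligature (+ or –), with bars for the group means and squares around the 2 libraries that went against their genotype label. Cxcl1 sits higher with both fat diets than with ND, while the highest values of Cxcl14 and Cx3cl1 on ND are in the boxed WT library.

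Changes were tested with limma on log2(normalized CPM + 1), and a gene was called at a Benjamini-Hochberg adjusted p below 0.05 over all 17852 genes tested. Averaged over the 6 combinations of genotype and diet, ligature changed 0 of the 9 genes, where 0.325% of all genes tested were called, and 1 of the 9 had an unadjusted p below 0.05. Genotype, averaged over diet and ligature, changed 0 of 9, with 0.459% of all genes called and 1 of 9 at an unadjusted p below 0.05. On all 36 libraries, neither edgeR nor DESeq2 on the recovered reads called a member for ligature or genotype. In the 34 libraries that match their genotype label, limma called 1 of 9 for genotype, Cxcl14, with 7.35% of all genes called. The 40% HFD, averaged over genotype and ligature, changed 1 of 9 against ND (9.21% of all genes), and the 60% HFD also changed 1 of 9 (18.6% of all genes). That gene was Cxcl1 both times, and the member counts are near or below the background shares. Against the 40% HFD, the 60% HFD changed 0 of 9, with 0.745% of all genes called, 2 of 9 at an unadjusted p below 0.05 and none called by edgeR or DESeq2. By the criteria the study used for differentially expressed genes (a p no higher than 0.05 before adjustment, with a ratio of 1.5 or more, or 0.67 or less), 1 of 9 passed with the 40% HFD (7.9% of all genes), namely Cx3cl1, and 1 of 9 with the 60% HFD (9.88%), namely Cxcl1. The ratio of Cxcl1 with the 40% HFD was 1.49 on the scale with a pseudocount and so just missed. By the same criteria edgeR on the recovered reads passed 3 of 9 with the 40% HFD (Cxcl1, Cxcl14 and Cx3cl1, with 12.4% of all genes) and 2 of 9 with the 60% HFD (Cxcl1 and Cxcl13, with 15% of all genes), and DESeq2 passed 3 of 9 with each (13.6% and 16% of all genes). Both also passed Cx3cl1 for ligature (4.66% and 5.88% of all genes) and Cxcl14 for the 60% against the 40% HFD (4.94% and 5.71%), where DESeq2 added Cxcl13. The median log2 fold change of the 9 genes was -0.06 with the 40% HFD and 0.04 with the 60% HFD, against -0.02 and 0.01 over all genes tested.

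**Figure D3:**
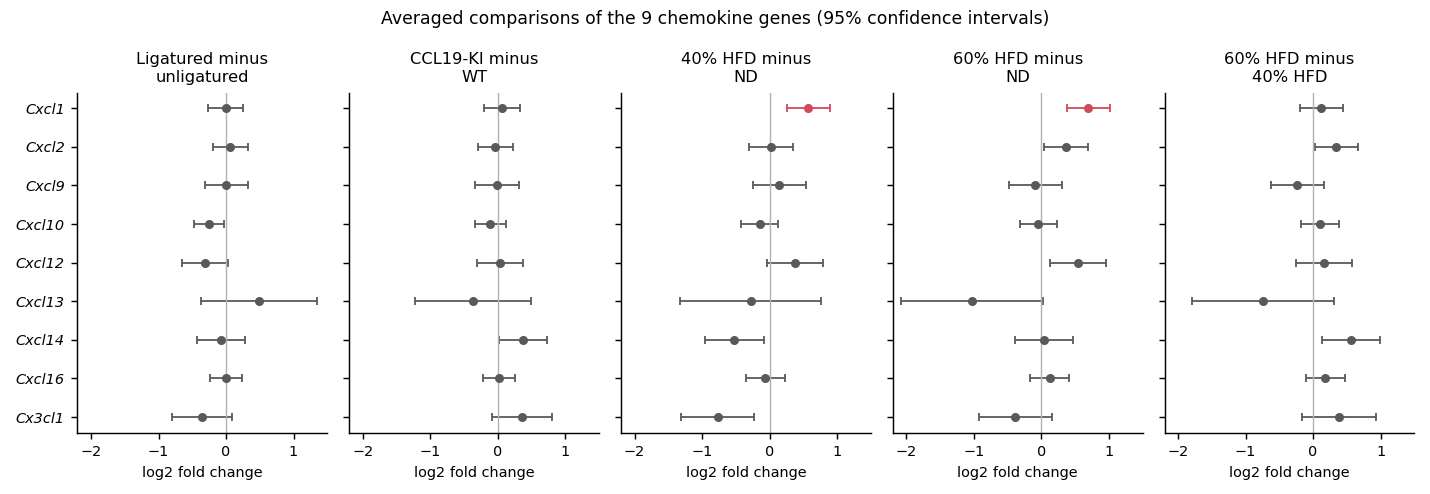
log2 fold change of the 9 genes, with 95% confidence intervals, in the 5 averaged comparisons over all 36 libraries; red marks an adjusted p below 0.05. Cxcl1 is the gene marked, at 0.57 with the 40% HFD and 0.70 with the 60% HFD, and the widest intervals belong to Cxcl13.

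Over the 24 comparisons of 2 groups that differ in 1 factor, 5 tests of the 9 genes were called, and 4.08% of all such tests over the genes tested were. By the study's criteria 28 tests of members passed, with 10.9% of all tests passing, and in 34 the 3 values of one group lay wholly above or below those of the other, where 20.1% of all tests did. Of the 5 calls, 3 were of Cxcl14, 1 of Cx3cl1 and 1 of Cxcl1. An exact permutation test of 3 libraries against 3 cannot go below 0.1, two-sided, so that a call rests on the spread shared by all 12 groups. Cxcl14 passed the study's criteria in 12 of its 24 comparisons, Cxcl1 in 5, Cxcl12, Cxcl13 and Cx3cl1 in 3 each, Cxcl2 and Cxcl10 in 1 each, and Cxcl9 and Cxcl16 in 0. Without the 2 libraries that went against their label, 5 tests were also called, but not the same 5. The genotype calls of Cxcl14 on ND and of Cx3cl1 on the 60% HFD, both in unligatured mice, were lost. Gained were Cx3cl1 on the 40% HFD against ND in ligatured CCL19-KI mice and Cxcl14 on the 60% against the 40% HFD in unligatured ones. In that fit 22 tests met the study's criteria and 44 had no overlap. Over all genes in that fit the shares were 5.23%, 11.7% and 25.9%, and 2 of its groups hold 2 libraries each, which makes a lack of overlap easier to reach.

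Cxcl1, the gene of the neutrophil chemoattractant KC, rose with both fat diets. Its lowest, median and highest values were 0.300, 0.632 and 2.54 normalized CPM in the 12 ND libraries, 0.722, 1.99 and 3.00 in the 12 libraries of the 40% HFD, and 0.736, 1.89 and 3.37 in the 12 of the 60% HFD. All 12 libraries of each fat diet were above the ND median, but the ranges overlapped. The highest ND library, CCL19-KI ligatured replicate 1, reached 2.54, and other ND libraries, at up to 1.46, also lay above the lowest fat diet values. The averaged difference from ND on the log2(normalized CPM + 1) scale was 0.57 (SE 0.16, 95% confidence interval 0.25 to 0.89, adjusted p = 0.0241) with the 40% HFD and 0.70 (SE 0.16, 0.38 to 1.02, adjusted p = 0.00394) with the 60% HFD. The 60% and 40% HFD differed by 0.12 (-0.20 to 0.44, adjusted p = 0.766). Because the pseudocount of 1 is close to the level of Cxcl1, these values understate its fold change, and edgeR on the recovered reads gave log2 fold changes of 1.04 (adjusted p = 0.0259) and 1.17 (adjusted p = 0.00945).

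Of the 8 comparisons of a fat diet with ND within 1 genotype and ligature state, 1 was called for Cxcl1. In ligatured WT mice it was 0.345, 0.405 and 1.01 normalized CPM on ND and 3.37, 1.85 and 2.40 on the 60% HFD, and the values did not overlap. The difference was 1.16 (SE 0.31, adjusted p = 0.0442, exact permutation p = 0.1), in a comparison that called 2.57% of all genes tested. On the 40% HFD the same mice had 0.878, 2.28 and 0.722, which overlapped ND and differed from it by 0.49 (adjusted p = 0.590). In unligatured WT mice Cxcl1 was 1.14, 0.557 and 0.300 on ND, 3.00, 0.965 and 1.97 on the 40% HFD, and 1.74, 2.25 and 1.61 on the 60% HFD. Both fat diet groups lay above ND by group mean, and the differences of 0.81 and 0.81 missed the adjusted threshold (adjusted p = 0.118 and 0.173). In unligatured CCL19-KI mice it was 0.708, 1.46 and 0.943 on ND, 2.00, 2.07 and 2.26 on the 40% HFD, and 1.48, 1.44 and 0.736 on the 60% HFD, the last being the library against its label. The 40% HFD lay wholly above ND (0.63, adjusted p = 0.612) and the 60% HFD overlapped it (0.12, adjusted p = 0.821). In ligatured CCL19-KI mice it was 2.54, 0.368 and 0.490 on ND, 0.978, 2.40 and 1.24 on the 40% HFD, and 2.21, 1.94 and 2.24 on the 60% HFD. Both fat diets overlapped ND there, at 0.35 (adjusted p = 0.536) and 0.69 (adjusted p = 0.127). Averaged over the other factors, Cxcl1 differed by -0.01 (-0.27 to 0.26, adjusted p = 0.987) with ligature and by 0.06 (-0.20 to 0.32, adjusted p = 0.840) with genotype.

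Of these Cxcl1 calls, 2 depended on single libraries, and hepatocyte transcripts moved with the same diets. The averaged 40% HFD difference was 0.51 without CCL19-KI ND ligatured replicate 2 (adjusted p = 0.0530) and 0.51 without CCL19-KI 40% HFD ligatured replicate 2 (adjusted p = 0.0536), while the averaged 60% HFD difference stayed called in all 36 such fits, at 0.63 to 0.81. The difference in ligatured WT mice lost its call in 14 of the 36 fits, over a range of 1.00 to 1.34. These were the fits without WT ND ligatured replicate 1 (adjusted p = 0.243) or 2 (0.158), those without WT 60% HFD ligatured replicate 1 (0.164), 2 (0.0849) or 3 (0.103), and 9 without a library of another group (0.0501 to 0.0530). In the 34 libraries that match their genotype label the 2 differences were 0.56 (adjusted p = 0.0343) and 0.73 (adjusted p = 0.00673), and that in ligatured WT mice was 1.16 (adjusted p = 0.0347). Of the hepatocyte markers, 6 of 6 rose with each fat diet, from a median sum of 826 normalized CPM on ND to 15529 on the 40% HFD and 13462 on the 60% HFD. With the log2 of that sum as a covariate, added after seeing the data, the averaged Cxcl1 differences were 0.28 (adjusted p = 0.584) and 0.47 (adjusted p = 0.107). Since that sum itself rose with diet, this fit cannot tell a diet difference from one in hepatocyte content. Because these are bulk samples, more cells of a type and more RNA per cell cannot be told apart for any of the 9 genes.

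**Figure D4:**
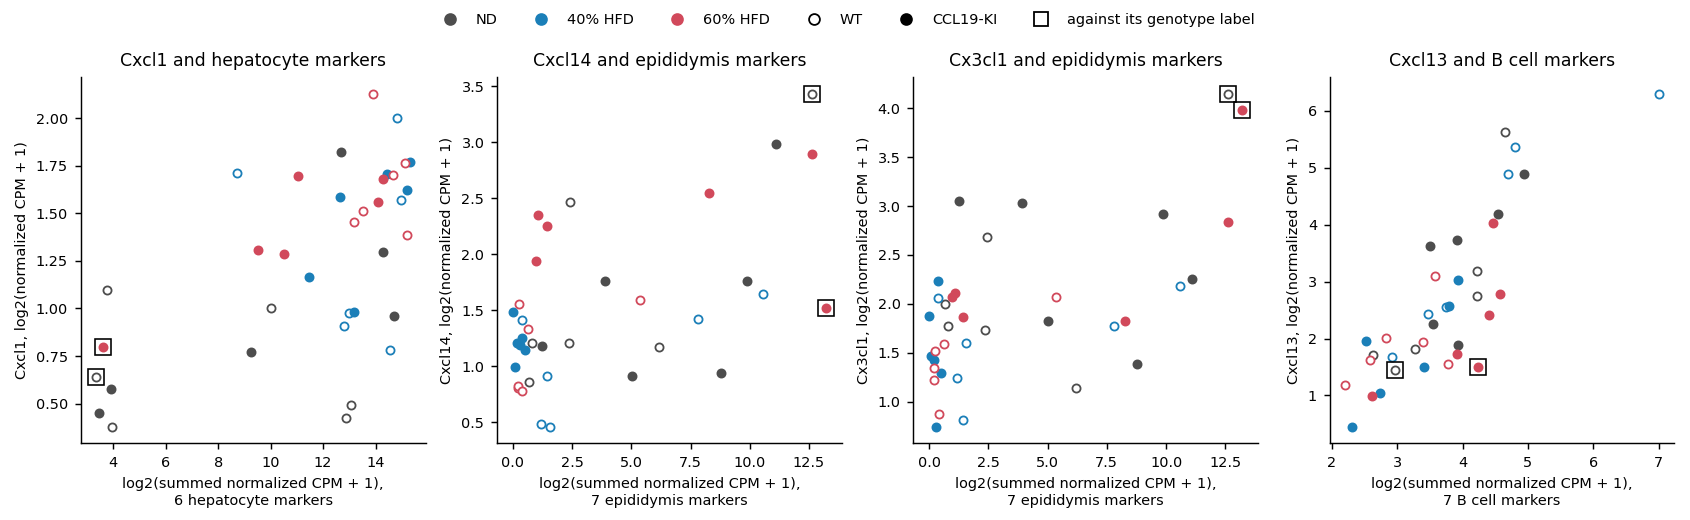
Each library's log2(normalized CPM + 1) of Cxcl1, Cxcl14, Cx3cl1 and Cxcl13 against the log2 summed normalized CPM of hepatocyte, epididymis or B cell markers, coloured by diet, with squares around the 2 libraries that went against their genotype label. The squares lie at the highest epididymis sums, 6347 and 9553, and the highest Cxcl13 value, 77.7 normalized CPM, is in the library with the highest B cell sum, 127.

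Cxcl2, the gene of the second CXCR2 ligand, was near the limit of detection. It was above 0 in 35 of 36 libraries, at most 1.63 normalized CPM, and rested on 3 reads or fewer in 14 libraries. Its lowest, median and highest values were 0, 0.192 and 1.63 on ND, 0.129, 0.247 and 0.949 on the 40% HFD, and 0.250, 0.682 and 1.30 on the 60% HFD. All 12 libraries of the 60% HFD were above the ND median and none was above the highest ND library, WT unligatured replicate 1. The averaged differences were 0.02 (-0.30 to 0.34, adjusted p = 0.942) with the 40% HFD and 0.37 (SE 0.16, 0.05 to 0.69, adjusted p = 0.0949) with the 60% HFD, and neither was called. The second was 0.47 (adjusted p = 0.0215) without WT ND unligatured replicate 1 and 0.44 (adjusted p = 0.0366) without CCL19-KI ND ligatured replicate 1. In ligatured WT mice, Cxcl2 was 0.207, 0.0507 and 0.619 on ND and 0.842, 1.12 and 1.01 on the 60% HFD, which did not overlap and differed by 0.65 (adjusted p = 0.266).

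Of 16 NF-kB response genes tested, 4 rose with the 60% HFD on average and 1 fell, where 18.6% of all genes were called, while 0 passed with the 40% HFD, where 9.21% were. Those that rose were Ccl7 (1.22 on the log2 scale) and Ccl2 (1.07), which draw monocytes, Sod2 (0.61), the mitochondrial superoxide dismutase, and Zfp36 (0.38), an mRNA decay factor. Nfkbia, the inhibitor that NF-kB itself induces, fell by 0.44. Of 9 immediate early genes, Atf3 (1.23) and Fos (1.21) rose with the 60% HFD, against the same 18.6%. Neutrophil markers also moved with that diet: 2 of 4 rose, beside 18.6% of all genes called, S100a8 by 1.70 and the receptor gene Csf3r by 0.42, and the summed level of the 4 had a median of 18.9 normalized CPM on the 60% HFD against 7.74 on ND and 7.43 on the 40% HFD. Its part in the Cxcl1 and Cxcl2 levels was not tested.

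Cxcl9 and Cxcl10, the CXCR3 ligands, did not pass the test in any comparison. Cxcl9 was 6.08, 12.9 and 24.7 normalized CPM at its lowest, median and highest in the 36 libraries. Its diet medians were 12.8 on ND, 15.2 on the 40% HFD and 11.5 on the 60% HFD, and the averaged differences from ND were 0.14 (-0.25 to 0.54, adjusted p = 0.665) and -0.09 (-0.49 to 0.30, adjusted p = 0.767). By group mean over all 36 libraries, Cxcl9 was highest in unligatured CCL19-KI mice on the 40% HFD, 18.3 ± 3.57 (SD, n = 3), and lowest in ligatured WT mice on the 60% HFD, 9.91 ± 2.78 (SD, n = 3). Both ends changed in the 34 libraries that match their genotype label. There it was highest in unligatured WT mice on ND, 20.2 ± 5.39, and lowest in unligatured CCL19-KI mice on the 60% HFD, 9.68 ± 1.71 (SD, n = 2 each).

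Cxcl10 was 0.659, 1.97 and 4.51 normalized CPM at its lowest, median and highest. It was 2.61, 4.51 and 2.50 in unligatured WT mice on ND and 2.00, 1.67 and 1.63 in ligatured ones, with no overlap and a difference of -0.58 (adjusted p = 0.187). In unligatured CCL19-KI mice on ND it was 1.60, 1.94 and 1.30, also below all 3 unligatured WT values, at a difference of -0.66 (SE 0.27, adjusted p = 0.0899). The value of 4.51 is in the library labelled WT ND unligatured replicate 2, and without the 2 libraries against their label the genotype difference was -0.45 (adjusted p = 0.273). The remaining unligatured WT values, 2.61 and 2.50, still lay above all values of both other groups. In that limma fit, 0 of the 9 genes had an unadjusted p below 0.05 for ligature in WT mice on ND. Averaged over genotype and diet, ligature came with a difference of -0.25 (SE 0.11, -0.48 to -0.03, unadjusted p = 0.0293, adjusted p = 0.259), or -0.20 (adjusted p = 0.386) in the 34 libraries. Diet moved Cxcl10 by -0.15 (-0.43 to 0.13) with the 40% HFD and -0.05 (-0.32 to 0.23) with the 60% HFD. Of 15 genes of the interferon-gamma response, the GTPase gene Iigp1 rose with the 40% HFD (1.33, adjusted p = 0.0316), and the GTPase gene Gbp5 fell with the 60% HFD (-0.60, adjusted p = 0.0139). No other gene of that list passed with either diet, where 9.21% and 18.6% of all genes were called.

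Cxcl12 was the most abundant of the 9 genes and was not called in any comparison. Its lowest, median and highest values were 37.4, 67.2 and 143 normalized CPM on ND, 45.5, 88.8 and 184 on the 40% HFD, and 58.1, 109.7 and 162 on the 60% HFD. Of the 12 libraries of the 60% HFD, 11 were above the ND median, and 10 of 12 of the 40% HFD were. The averaged differences were 0.38 (-0.04 to 0.79, adjusted p = 0.236) with the 40% HFD and 0.54 (SE 0.20, 0.13 to 0.96, adjusted p = 0.0600) with the 60% HFD, and ligature came with -0.31 (-0.65 to 0.03, adjusted p = 0.353). The 60% HFD difference was called in 5 of 36 fits that each left out 1 library, for example at 0.65 (adjusted p = 0.0205) without WT ND unligatured replicate 1, and was 0.47 (adjusted p = 0.140) in the 34 libraries. Hepatocyte markers rose with the same diets, as given for Cxcl1. With their sum as a covariate the differences were -0.22 (adjusted p = 0.745) with the 40% HFD, which turned its direction, and 0.08 (adjusted p = 0.862) with the 60% HFD. As for Cxcl1, that fit cannot tell diet from hepatocyte content. In ligatured WT mice, Cxcl12 was 63.7, 51.5 and 37.4 on ND and 91.8, 104.8 and 135.3 on the 60% HFD, which did not overlap and differed by 1.12 (adjusted p = 0.131). In unligatured mice on the 60% HFD it was 115, 154 and 162 in WT and 58.1, 68.9 and 98.8 in those labelled CCL19-KI, which did not overlap and differed by -0.94 (SE 0.41, adjusted p = 0.109). The 98.8 is the library against its genotype label. The other 2 had a mean of 63.5 and also lay below all WT values.

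Cxcl13, the B cell chemokine, was the most variable member. Its within-group SD was 1.31 on the log2 scale, against a median of 0.318 over all genes tested. In ligatured WT mice on the 40% HFD it was 4.39, 77.7 and 28.8 normalized CPM, and in ligatured CCL19-KI mice on that diet 2.86, 4.95 and 0.365. The 2 groups overlapped, and their difference of -2.89 (SE 1.02, unadjusted p = 0.00881) had an adjusted p of 1.00. High values were scattered over groups, with 48.4 in WT ND ligatured replicate 2, 40.3 in WT 40% HFD unligatured replicate 1 and 28.8 in CCL19-KI ND unligatured replicate 1. The averaged differences were -0.28 (-1.33 to 0.77) with the 40% HFD, -1.02 (-2.07 to 0.02, adjusted p = 0.153) with the 60% HFD, 0.49 (-0.37 to 1.34) with ligature and -0.37 (-1.22 to 0.49) with genotype.

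B cell markers were high in the same libraries as Cxcl13. The sum of 7 markers (Cd79a, Cd79b, Ms4a1, Pax5, Blk, Fcrla and Cr2) was 127 normalized CPM in WT 40% HFD ligatured replicate 2, where Cxcl13 was 77.7, and 29.7 in the next library, CCL19-KI ND unligatured replicate 1. It was 26.8, 24.9 and 24.2 in WT 40% HFD unligatured replicate 1, WT 40% HFD ligatured replicate 3 and WT ND ligatured replicate 2, and its lowest value was 3.61. All 7 markers were above 0 in all 36 libraries, and 0 of 7 passed in any averaged comparison. Cxcr5, the receptor for CXCL13, was 7.46 in WT 40% HFD ligatured replicate 2 and 0.146 to 2.55 in the other 35 libraries. The study's methods state that lymph nodes were removed before RNA extraction. The part of B cells in the Cxcl13 levels was not tested.

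Under the labels, Cxcl14 was called lower in CCL19-KI than in WT in unligatured mice on ND and higher on the 60% HFD, and the call on ND was lost without the libraries that went against their label. In unligatured mice on ND it was 4.51, 9.80 and 1.25 normalized CPM in those labelled WT and 1.27, 0.918 and 0.884 in CCL19-KI. One WT value fell just below the highest CCL19-KI value, and 9.80 is the library labelled WT ND unligatured replicate 2, whose Ccl19 went against that label. The difference was -1.34 (SE 0.42, 95% confidence interval -2.21 to -0.47, adjusted p = 0.0323, exact permutation p = 0.2), and 16.6% of all genes were called in this comparison. In unligatured mice on the 60% HFD it was 1.94, 0.751 and 0.768 in WT and 4.83, 6.42 and 1.86 in those labelled CCL19-KI. Of these, 1.86 is the library labelled CCL19-KI replicate 3, again against its label, and it was the 1 value that overlapped WT. The difference was 1.26 (SE 0.42, 0.39 to 2.12, adjusted p = 0.0422, exact permutation p = 0.2), with 16.8% of all genes called.

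Without the 2 libraries that went against their label, the Cxcl14 difference on the 60% HFD was larger and that on ND smaller. On the 60% HFD the remaining CCL19-KI values, 4.83 and 6.42, lay above all 3 WT values, and the difference was 1.65 (SE 0.39, 0.86 to 2.45, adjusted p = 0.00790). On ND the remaining WT values were 4.51 and 1.25, and the difference was -0.80 (SE 0.39, -1.60 to -0.01, adjusted p = 0.138). Averaged over diet and ligature, the genotype difference of Cxcl14 was 0.38 (SE 0.17, 0.02 to 0.73, adjusted p = 0.267) in all 36 libraries and 0.53 (SE 0.15, 0.23 to 0.83, adjusted p = 0.0321) in the 34. That fit called 7.35% of all genes for the averaged genotype, where the 36 libraries called 0.459%.

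In the other diet and ligature groups the Cxcl14 genotype difference was not called. In ligatured mice on ND it was 1.31, 0.811 and 1.32 in WT and 6.93, 2.39 and 2.39 in CCL19-KI, which did not overlap and differed by 1.08 (adjusted p = 0.246). In ligatured mice on the 60% HFD it was 0.713, 2.01 and 1.52 in WT and 3.78, 4.11 and 2.83 in CCL19-KI, also without overlap, at 0.95 (adjusted p = 1.00). On the 40% HFD the differences were 0.12 (-0.75 to 0.99) in unligatured and 0.19 (-0.68 to 1.06) in ligatured mice, and all 12 values of that diet lay between 0.376 and 2.12. Averaged over genotype and ligature, Cxcl14 differed by -0.52 (-0.96 to -0.09, adjusted p = 0.113) with the 40% HFD and 0.04 (-0.39 to 0.48) with the 60% HFD. The plot of genotype differences shows the 6 groups.

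**Figure D5:**
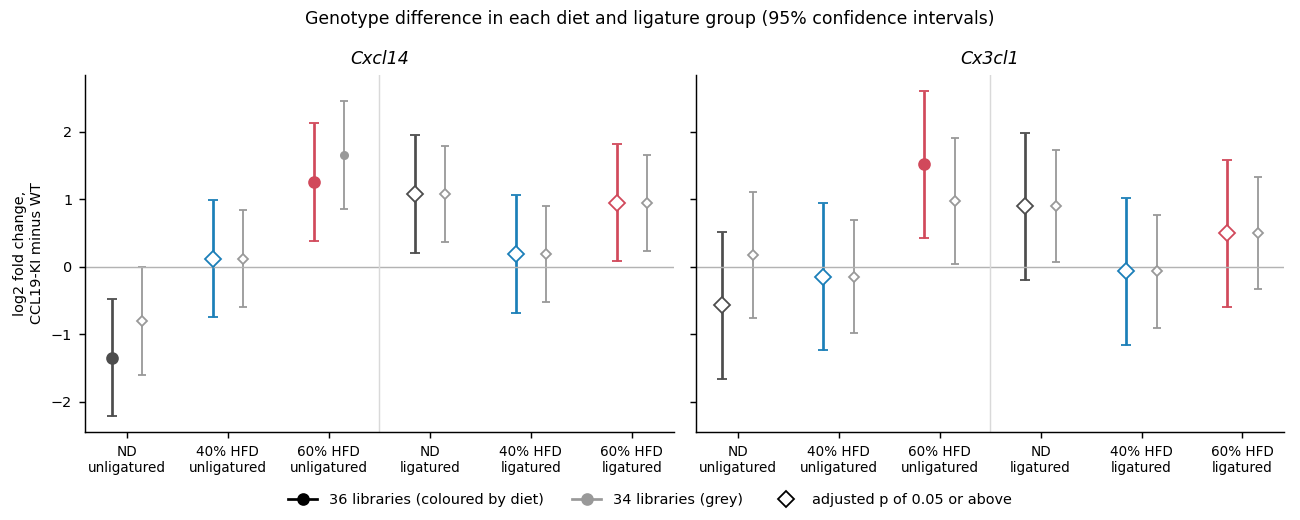
log2 fold change of Cxcl14 and Cx3cl1, CCL19-KI minus WT, with 95% confidence intervals in each diet and ligature group, from all 36 libraries (coloured) and from the 34 that match their genotype label (grey); circles are called and open diamonds are not. Cxcl14 in unligatured mice on the 60% HFD is called in both fits, at 1.26 and 1.65, while Cx3cl1 there is 1.52 and called in 36 libraries and 0.97 and not called in 34.

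Within unligatured mice labelled CCL19-KI, Cxcl14 rose from 1.27, 0.918 and 0.884 on ND to 4.83, 6.42 and 1.86 on the 60% HFD, without overlap. The difference was 1.30 (SE 0.42, 0.44 to 2.17, adjusted p = 0.0485, exact permutation p = 0.1), with 10.2% of all genes called, and it lost its call in 27 of 36 fits that left out 1 library, over a range of 1.02 to 1.70. In the 34 libraries it was 1.70 (adjusted p = 0.0120), and the step from the 40% to the 60% HFD in the same mice, 1.02 (adjusted p = 0.118) in 36 libraries, was 1.42 (adjusted p = 0.0264). The genotype call on ND was lost without any 1 of 4 libraries, at -1.29 (adjusted p = 0.0819) without WT replicate 1, -0.80 (0.185) without the library labelled WT replicate 2, and -1.31 (0.122) and -1.29 (0.114) without CCL19-KI replicates 2 and 3. The genotype call on the 60% HFD was lost without WT replicate 2 or 3 or CCL19-KI replicate 1 or 2, over a range of 0.97 to 1.65.

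Epididymal transcripts were high in some of the libraries where Cxcl14 was high. The 7 epididymis markers summed to 4.40, 6347 and 71.7 normalized CPM in the 3 libraries labelled WT ND unligatured, to 308, 6266 and 9553 in those labelled CCL19-KI 60% HFD unligatured, and to 2209, 937 and 14.0 in CCL19-KI ND ligatured. None of the 7 markers was above 0 in all 36 libraries. In CCL19-KI 60% HFD ligatured, where Cxcl14 was 2.83 to 4.11, the sum was 0.969 to 1.72. With the log2 epididymis sum as a covariate, added after seeing the data, the genotype difference of Cxcl14 on the 60% HFD without ligature was 0.46 (adjusted p = 0.757). In the 31 libraries with a sum under 1000 the same difference was 1.48 (adjusted p = 0.0192), with 1 CCL19-KI library, at 4.83, left in that comparison and assumed to vary like the other groups. The averaged genotype difference was 0.28 (adjusted p = 0.466) with the covariate and 0.47 (adjusted p = 0.0220) in the 31 libraries, a fit that called 20.1% of all genes for genotype.

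Cx3cl1, the gene of fractalkine, was highest in the 2 libraries that went against their genotype label. It was 5.44, 16.7 and 1.20 normalized CPM in the libraries labelled WT ND unligatured, where replicate 2 is the one against its label, and 7.31, 1.62 and 2.54 in CCL19-KI on the same diet. In unligatured mice on the 60% HFD it was 1.88, 1.33 and 1.54 in WT and 2.56, 6.13 and 14.8 in those labelled CCL19-KI, where replicate 3 is the one against its label. The groups on the 60% HFD did not overlap and differed by 1.52 (SE 0.53, 0.43 to 2.61, adjusted p = 0.0489, exact permutation p = 0.1). In the 34 libraries the 2 remaining CCL19-KI values, 2.56 and 6.13, lay above all 3 WT values, and the difference was 0.97 (SE 0.45, 0.04 to 1.90, adjusted p = 0.130). The call was lost in 29 of 36 fits that left out 1 library, over a range of 0.97 to 2.04, the lowest being without the library labelled CCL19-KI 60% HFD unligatured replicate 3. In the 31 libraries with an epididymis sum under 1000, the difference was 0.47 (adjusted p = 0.592), a value in which CCL19-KI is 1 library, at 2.56, assumed to vary like the other groups.

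Over the diets, Cx3cl1 was below the ND median in most libraries of the fat diets, and no averaged difference passed the adjusted threshold. Its lowest, median and highest values were 1.20, 3.37 and 16.7 normalized CPM on ND, 0.677, 1.90 and 3.70 on the 40% HFD, and 0.842, 2.60 and 14.8 on the 60% HFD. Of the 12 libraries of each fat diet, 10 were below the ND median. The averaged difference was -0.77 (SE 0.27, -1.31 to -0.22, adjusted p = 0.0651) with the 40% HFD and -0.38 (-0.93 to 0.16, adjusted p = 0.313) with the 60% HFD. In the 34 libraries the first was -0.58 (adjusted p = 0.0821). It was called in 4 of 36 fits that left out 1 library, over a range of -0.96 to -0.58. On all 36 libraries, edgeR and DESeq2 called it at -1.21 (adjusted p = 0.0265) and -1.20 (adjusted p = 0.00698). Over all settings and left-out fits, the 40% HFD difference ran from -1.21 to -0.31, with an adjusted p of up to 0.764. Hepatocyte markers rose with both fat diets, so that diet and hepatocyte content cannot be told apart here, as for Cxcl1. Over the 36 libraries, Pearson's r of Cx3cl1 was -0.61 with the log2 hepatocyte sum and 0.60 with the log2 epididymis sum. In ligatured CCL19-KI mice, Cx3cl1 was 3.76, 6.57 and 7.17 on ND and 0.677, 1.77 and 1.68 on the 40% HFD, without overlap. That difference was -1.52 (adjusted p = 0.0860) in 36 libraries and -1.52 (adjusted p = 0.0197) in the fit of the 34, in which both of its groups keep all 3 libraries.

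Cxcl16, the other membrane-anchored chemokine, had the smallest ratio between its highest and lowest group means, given above, of the 9 genes. It was 8.30, 13.3 and 23.9 normalized CPM at its lowest, median and highest, with diet medians of 12.7 on ND, 13.5 on the 40% HFD and 13.7 on the 60% HFD. No comparison of it was called, and the averaged differences were 0.00 (-0.23 to 0.23) for ligature, 0.02 (-0.21 to 0.25) for genotype, -0.06 (-0.35 to 0.22) for the 40% HFD and 0.12 (-0.16 to 0.41) for the 60% HFD. Its group means ran from 10.5 ± 0.439 in ligatured CCL19-KI mice on the 40% HFD to 16.4 ± 2.62 in ligatured CCL19-KI mice on the 60% HFD (SD, n = 3 each). In the 34 libraries the lowest group was the same, and the highest was unligatured CCL19-KI mice on the 60% HFD, 17.2 ± 0.121 (SD, n = 2).

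Whether an effect differed between conditions was tested as a difference between 2 effects. Over 15 such differences, 3 tests of the 9 genes were called, where 3.25% of all such tests were. The genotype effect on Cxcl14 in unligatured mice was 2.60 higher on the 60% HFD than on ND (SE 0.60, adjusted p = 0.00398), with 21.8% of all genes called. On ND it was 2.42 higher in ligatured than in unligatured mice (SE 0.60, adjusted p = 0.0164), with 7.59% of all genes called. For Cx3cl1, the genotype effect in unligatured mice was 2.09 higher on the 60% HFD than on ND (SE 0.75, adjusted p = 0.0468). All 3 use groups that hold a library against its label, and the values in the 34 libraries were 2.46 (adjusted p = 0.00749), 1.88 (adjusted p = 0.0301) and 0.79 (adjusted p = 0.403). Over 36 fits that left out 1 library, the first stayed called at 2.06 to 3.19. The second lost its call without WT ND ligatured replicate 2 (2.30, adjusted p = 0.0510), and the third lost it in 24, over a range of 1.34 to 2.84. With the hepatocyte or the epididymis marker sum as a covariate, each added after seeing the data, none of the 3 was called. The 34 libraries also called the difference in the ligature effect on Cxcl14 in CCL19-KI mice between the 60% HFD and ND, at -1.69 (adjusted p = 0.0307).

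Receptors for these ligands did not pass in the averaged comparisons. Of 8 receptor genes tested, 0 were called for ligature, genotype, either fat diet or the 60% against the 40% HFD, and the lowest adjusted p was 0.230. Cxcr2, the receptor for CXCL1 and CXCL2, was too low for the filter, with 3 reads or fewer in 10 libraries. Of 3 other CXC ligands tested, 0 were called on average. Cxcl11, the third CXCR3 ligand, was 0.96 lower on the log2 scale on the 60% than on the 40% HFD in unligatured mice labelled CCL19-KI (adjusted p = 0.0313). That comparison is picked from 24 of 2 groups, over which 4.08% of all tests were called. Cxcl11 had 3 reads or fewer in 10 libraries, and its 60% HFD group there holds a library against its genotype label. Of 3 proteases that process chemokines, Adam17, which releases CX3CL1 and CXCL16 from the membrane, rose with the 60% HFD by 0.40 (adjusted p = 0.0175). It was the 1 of the 3 called, where 18.6% of all genes tested were.

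Similarity of pattern was described by Pearson's r of log2(normalized CPM + 1) over the 36 libraries, which share diets, depth and admixed tissue, so that r is given without a test. Between members, r was highest for Cxcl14 and Cx3cl1 (0.62), then Cxcl1 and Cxcl12 (0.58), Cxcl2 and Cxcl16 (0.57) and Cxcl1 and Cxcl2 (0.53). Among all genes tested, the 3 most like Cxcl13 were Ms4a1 (0.88), the B cell surface gene also in the marker list, Mzb1 (0.84) and Cd79b (0.81). Those most like Cxcl2 were Lpxn (0.86), Tnfaip2 (0.86) and Bcl2a1b (0.85), and those most like Cxcl16 were Icam1 (0.80), Plpp1 (0.76) and Ggta1 (0.76). Cxcl1 was most like Gsap (0.72), Hsph1 (0.71) and Tfec (0.68), and Cxcl12 most like Sh3bgrl2 (0.91), C2cd2 (0.89) and Cdk18 (0.88). Cxcl9 was most like Acp5 (0.78), Fbxo4 (0.76) and Tdrp (0.76), and Cxcl10, with the lowest values, like Gstcd (0.63), Hmgb3 (0.63) and Actr10 (0.60). Cxcl14 was most like Olfml3 (0.85), 1500011B03Rik (0.80) and Apod (0.79), which were 0.82, 0.84 and 0.75 over the 34 libraries. Cx3cl1 was most like Cyb561 (0.81), Unc5b (0.81) and Abr (0.80), which were 0.64, 0.69 and 0.65 over the 34.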

How the data were processed

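RNA from eWAT of 36 mice was sequenced as rRNA-depleted, strand-specific paired-end libraries. The authors trimmed reads with Trimmomatic 0.38, mapped them to transcripts with Bowtie2 within RSEM 1.3.0, and deposited 1 table of edgeR-normalized CPM, a signal per gene that is not scaled to length. The methods name mm10 and the submitters' processing notes GRCm39, so no coordinate of the files was used. Within a library, 100% of the deposited values were whole multiples of 1 read (tolerance 0.01), which gave the recovered read counts; column sums ran from 799716 to 1208061. Expression was tested with limma 3.58.1 (R 4.3.3) on log2(normalized CPM + 1) for 17852 genes with at least 1 in at least 3 libraries, in 1 fit of 12 group means over all 36 libraries with 24 residual degrees of freedom. The contrasts were 24 between groups, 5 averaged and 15 differences between effects. The series' design text gives 3 mice per group. Alternatives were other pseudocounts (0.1, 5), filters and normalizations, a replicate block, edgeR 4.0.16 and DESeq2 1.42.0 on recovered reads, sample weights, separate fits, leaving out each library, and 4 chosen after seeing the data. Named genes were the 9 members, listed genes that passed, all receptors as counts, and the 3 genes most correlated with each member. Members, gene lists and tests were chosen with earlier results of these data known. One marker gene of the lists is not reported here. Code was checked on simulated data. Promoter sequences and start sites were from RefSeq (GRCm38.p6), of which 8 of 9 members had one.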

Additional observations from a re-analysis of the deposited data

Results flagged for a closer look

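Each of the 9 genes was tested in 15 differences between effects, and 3 tests were called, where 3.25% of all such tests were. In each of the 3, the genotype effect of one condition differed from that of the other. Of all genes tested, 21.8% were called for the 60% HFD against ND in unligatured mice, and 7.59% for ligature on ND. For Cxcl14 in unligatured mice, the effect was 1.26 on the 60% HFD and -1.34 on ND on the log2 scale, a difference of 2.60. For Cxcl14 on ND, the effect was 1.08 with ligature and -1.34 without, a difference of 2.42. For Cx3cl1 in unligatured mice, the effect was 1.52 on the 60% HFD and -0.57 on ND, a difference of 2.09. All 3 draw on the library labelled WT ND unligatured replicate 2, and the first and the last also on the library labelled CCL19-KI 60% HFD unligatured replicate 3, which went against their genotype label. In the 34 other libraries the differences were 2.46, 1.88 and 0.79, and the last was not called (adjusted p = 0.403 with limma). With the epididymis marker sum as a covariate the differences were 1.65, 1.77 and 1.32 (adjusted p = 0.141, 0.0963 and 0.396 with limma), and none was called. That fit called 1.12% of all tests of differences between effects.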

How the results depend on the processing

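Results were recomputed under 12 planned settings, 4 chosen after seeing the data and 36 fits that left out 1 library each. Of the member calls (5 in group comparisons, 3 in differences between effects, 1 each for the averaged 40% and 60% HFD, 0 for the 60% against the 40% HFD, genotype and ligature), the group comparisons gave 3 with a pseudocount of 0.1, 2 with a pseudocount of 5, 2 without a filter, 3 with quantile normalization, 2 in fits of 18 libraries, 11 with DESeq2 and 28 by the study's criteria, which gave 15 for differences; fits of 18 libraries gave 1 for differences. A filter at a mean of 5, which removed most members, and the hepatocyte covariate each gave 0 in the group comparisons, differences and both fat diets. The epididymis covariate gave 2 in group comparisons, 0 in differences and 0 for the 40% HFD. Sample weights (gene-by-gene, since the default estimate did not converge) gave 35, 14, 3, 4, 1 and 1 in the order above and 0 for ligature, where they called 17%, 17.2%, 37.3%, 39%, 6.5%, 26% and 15.6% of all tests. For the 40% HFD, edgeR and DESeq2 gave 2, and for the 60% HFD DESeq2 gave 2. Libraries with epididymis sums under 1000 gave 2 for the 40% HFD, 1 for the 60% against the 40% HFD and 1 for genotype, and the 34 libraries that match their label gave 1 for genotype. Leaving out 1 library gave 1 to 10 calls in group comparisons, 1 to 5 in differences, 0 to 3 for the 40% HFD and 1 to 3 for the 60% HFD. Of all tests, group comparisons called 2.83% to 4.27% under the pseudocounts, filters, normalizations, block and fits of 18 libraries, 5.22% with edgeR, 7.93% with DESeq2, 10.9% by the study's criteria, 0.598% with the hepatocyte covariate, 1.67% with the epididymis covariate, 6.85% in low-epididymis libraries and 5.23% in the 34. For the averaged genotype, low-epididymis libraries called 20.1% and the 34 called 7.35%. For the 40% HFD, edgeR called 10.7%, DESeq2 14.9% and low-epididymis libraries 17.5%. The cause of these changes was not tested. Replicate numbers are shared between groups, but the same number correlated at a median of -0.02 (from -0.66 to 0.71), and 10 of 36 libraries matched their own number best, so the block of replicate numbers is an alternative only: it gave 4 calls in group comparisons and 2 in differences. The averaged log2 fold changes that reversed under a setting were as follows. Cxcl1 gave, for ligature 0.00691 with a pseudocount of 5, 0.0304 with quantile normalization, 0.0497 with edgeR, 0.0246 with DESeq2 and -0.0788 to 0.0355 without 1 library, and for genotype -0.036 with quantile normalization, -0.0329 in low-epididymis libraries and -0.0119 to 0.109 without 1 library. Cxcl2 gave, for ligature -0.0151 with weights, and for genotype 0.0302 with weights and -0.0874 to 0.0311 without 1 library, and for the 40% HFD -0.00221 with a pseudocount of 5, -0.0945 with the hepatocyte covariate, -0.0394 with the epididymis covariate, -0.00633 in the 34 libraries and -0.0506 to 0.124 without 1 library. Cxcl9 gave, for ligature -0.00307 with a pseudocount of 5, -0.017 with edgeR, -0.0337 with DESeq2, -0.0543 with weights, -0.106 with the epididymis covariate, -0.0169 in low-epididymis libraries, -0.013 in the 34 libraries and -0.0608 to 0.0912 without 1 library, and for genotype 0.0239 with edgeR, 0.0152 with DESeq2, 0.0611 with the epididymis covariate and -0.102 to 0.0575 without 1 library, and for the 40% HFD -0.0474 with the epididymis covariate, and for the 60% HFD 0.0961 with weights, 0.0391 with the hepatocyte covariate and -0.187 to 0.0399 without 1 library. Cxcl10 gave, for the 40% HFD 0.0043 with weights, and for the 60% HFD 0.0669 in low-epididymis libraries and -0.0815 to 0.00846 without 1 library, and for the 60% against the 40% HFD -0.072 with weights. Cxcl12 gave, for genotype -0.152 in low-epididymis libraries, -0.0174 in the 34 libraries and -0.0433 to 0.0988 without 1 library, and for the 40% HFD -0.216 with the hepatocyte covariate. Cxcl14 gave, for ligature 0.0605 with the epididymis covariate and -0.177 to 0.0118 without 1 library, and for the 60% HFD -0.000258 with a pseudocount of 5, -0.18 with the hepatocyte covariate and -0.107 to 0.175 without 1 library. Cxcl16 gave, for ligature -0.00137 with a pseudocount of 5, -0.0126 with DESeq2, -0.0299 with the epididymis covariate, -0.0778 in low-epididymis libraries, -0.0245 in the 34 libraries and -0.0459 to 0.0693 without 1 library, and for genotype -0.00753 with weights, -0.0179 in low-epididymis libraries and -0.0503 to 0.064 without 1 library, and for the 40% HFD 0.167 with weights, 0.00921 in low-epididymis libraries and -0.121 to 0.0426 without 1 library. Cx3cl1 gave, for ligature 0.000234 in low-epididymis libraries. Depth limits Cxcl2 most, with 3 reads or fewer in 14 libraries.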
